A study of Mus musculus with 31 samples.

Results

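This section describes 9 interferon-induced genes (Ifi204, Ifit1, Ifit3, Isg15, Irf7, Usp18, Ifi47, Gbp2 and Iigp1) in 31 BXD mouse strains. A probe was counted when the platform's gene table gave it 1 gene name and that name was on the list. All 9 genes were measured, each by 1 probe, out of 23040 probes on the array. The list was chosen by the known induction of these genes by interferon, and with the low mean ratio of Ifi204 on these same arrays in view. Values of the strain means are therefore given as a description, with no test of their own.

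The tested RNA came from 7 strains of BXD33-42 and 24 strains of BXD1-32, and the reference RNA from C57BL/6J. Every BXD strain is inbred and carries, at each locus, the allele of C57BL/6J or of DBA/2J, the parents of the panel. All mice were males aged 8 weeks, with RNA of 3 mice pooled for a strain and 1 array for each strain. Strain RNA carried a red dye and the reference a green one, with no dye swap. The split into BXD33-42 and BXD1-32 follows background knowledge of a later and an earlier breeding, not the labels. Titles named kidney and the source fields named whole brain. Ratios hold no absolute level, so presence or absence of tissue markers could not be checked. With 1 array for each strain, an effect of strain and one of array cannot be told apart.

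Interferons are secreted when cells sense viral or bacterial nucleic acids. They act through surface receptors, Janus kinases and STAT transcription factors to switch on a large set of defence genes. Type I interferons work chiefly through the interferon-stimulated response element in promoters, and interferon gamma through the gamma-activated site. In tissue without infection, a low tonic signal keeps many of these genes at a basal level, and genes that share this input often vary together.

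Promoter sequences are shown to present the response element for some of the members that did and did not vary together in these strains. RefSeq promoter windows of build GRCm38.p6 were matched by symbol for 6 of the 9 genes. No window was available for Ifi204, Usp18 and Iigp1, so these genes are not part of the search. The 250 bases before each start were searched on both strands for the core of the interferon-stimulated response element (GAAA, any pair of bases, GAAA). It was found in Ifit1, Ifit3, Isg15 and Gbp2, and in 2.98% of 32851 promoters in all. These letters were not in the windows of Irf7 and Ifi47. The gamma-activated site TTCNNNGAA was in none of the 6 windows and in 7.02% of all. Some of the 3 matches in Isg15 overlap. The 170 bases before the start are given 5′ to 3′ on the strand of the gene, with matches to the response element in capitals. They lie at chr19:34640719-34640888 on the plus strand (Ifit1), chr4:156200819-156200988 on the minus strand (Isg15), chr19:34583359-34583528 on the plus strand (Ifit3) and chr3:142620493-142620662 on the plus strand (Gbp2).
Ifit1: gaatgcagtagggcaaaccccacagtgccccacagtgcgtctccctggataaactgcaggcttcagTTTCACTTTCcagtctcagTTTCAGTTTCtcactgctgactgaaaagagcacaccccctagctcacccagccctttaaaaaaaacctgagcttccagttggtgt
Isg15: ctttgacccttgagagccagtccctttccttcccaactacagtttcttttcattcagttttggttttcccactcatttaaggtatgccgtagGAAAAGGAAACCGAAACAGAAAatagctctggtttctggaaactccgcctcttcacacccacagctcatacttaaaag
Ifit3: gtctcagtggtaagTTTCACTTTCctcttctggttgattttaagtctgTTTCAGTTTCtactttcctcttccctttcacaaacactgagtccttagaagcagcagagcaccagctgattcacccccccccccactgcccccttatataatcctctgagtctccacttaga
Gbp2: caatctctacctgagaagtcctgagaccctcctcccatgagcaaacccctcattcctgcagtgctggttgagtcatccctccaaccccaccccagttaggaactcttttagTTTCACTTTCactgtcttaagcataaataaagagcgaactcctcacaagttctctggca

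Values are log2 ratios of strain to C57BL/6J, the likely reading of the deposited numbers, so that a value of 0 means an equal signal of both dyes. Neither base nor direction is stated in the sources used here. If the ratio ran the other way, every sign, higher or lower, and rank of a level below would turn: Ifi204 would be the highest of the 9 and Usp18 the lowest. Correlations between genes would not change. Quantile normalization had given all arrays the same distribution, with a median of 0.0127 and an SD of 0.602. Correlations between arrays had a median of 0.363, and the first principal component held 20.6% of the variance over strains. For 902 genes measured by 2 probes, the median correlation of the pair over strains was 0.0196, so 1 probe is not a measure of its gene as a whole. Spot position was inferred from the probe number, in a repeat of 480 numbers, because the print layout is not given in the sources used here. This inferred position held 36.7% of the variance of the probe means. Member means with spot position removed are given where they moved by over 0.05.

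Ifi204, a DNA-binding protein of the interferon-inducible p200 family, stood far below the other members. It was lowest in BXD12 and BXD14 at -2.77, had a median just under -2, and was highest in BXD38 at 0.38. It was below 0 in 30 of 31 strains and below -2 in 16 of them. The mean was -1.68 ± 0.91 (SD, n = 31 strains), a 3.21-fold lower signal than C57BL/6J if the values are log2 of strain over reference, and only 5 of the 23040 probes had a lower mean. With spot position removed the mean was -1.50, and 18 probes lay lower. Of 48 spots at the same inferred position, Ifi204 had the lowest mean, ahead of the next at -1.25, while their median was -0.26.

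Within single strains, Ifi204 was the lowest of the 9 genes in 26 of 31. The exceptions were BXD15 (-0.02), BXD16 (-0.40), BXD34 (-0.21), BXD38 (0.38) and BXD39 (-0.20). In these 5 strains Ifi204 lay inside the range of the other 8 genes. At the far end, BXD29 had Ifi204 at -2.54 while its next lowest member stood at -0.18. The mean of the other 8 genes ran only from -0.20 to 0.53 over strains, with a median of 0.14. Fewer cells of a type that expresses a gene and less RNA per cell cannot be told apart in such tissue RNA.

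**Figure D1:**
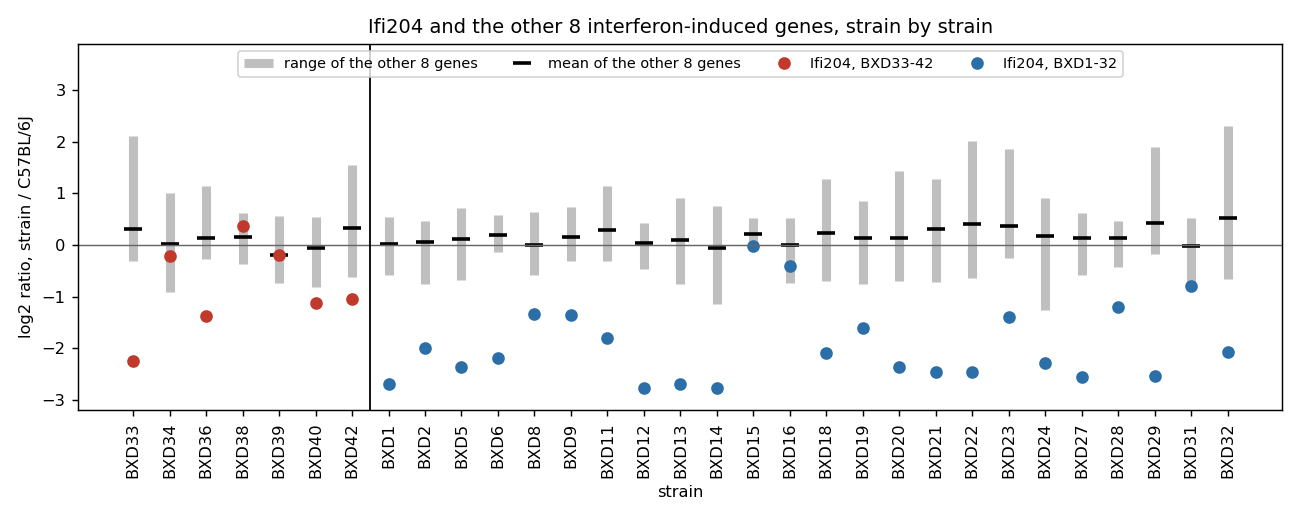
Log2 ratio to C57BL/6J (y axis) of Ifi204 in each strain (x axis; red, 7 strains of BXD33-42; blue, 24 strains of BXD1-32), with the range (grey bar) and mean (black dash) of the other 8 genes. Ifi204 lies below the bar in 26 strains and inside it in BXD15, BXD16, BXD34, BXD38 and BXD39.

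Among the members that act on viral RNA or modify proteins, Usp18 and Ifit3 were above 0 in nearly all strains, whereas Ifit1 and Isg15 lay on both sides of 0. Usp18, the protease that removes ISG15 from proteins and restrains the type I receptor, had the highest mean of the 9, 0.61 ± 0.56 (SD, n = 31), and was above 0 in 30 strains. With spot position removed its mean was 0.50. Its values ran from -0.55 in BXD14 through a median of 0.50 to 2.31 in BXD32, and BXD29 followed at 1.90. Ifit3, an adaptor that joins Ifit1 in RNA-binding complexes, averaged 0.44 ± 0.27 (SD, n = 31) and was above 0 in 29 strains, with a mean of 0.35 once spot position was removed. It varied little, from -0.23 in BXD36 to 1.06 in BXD42, and 18.2% of all probes varied less.

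Ifit1, which binds foreign RNA ends, averaged only 0.13 but varied widely, with an SD of 0.81 that exceeded that of 94.3% of probes. Its lowest value was -0.76 in BXD2, its median -0.19 and its highest 2.02 in BXD22. The widest gap, from 0.11 to 0.48, left 11 strains above it and 20 below. A gap of similar width lay between BXD36 (0.76) and BXD32 (1.12). Isg15, the ubiquitin-like modifier that Usp18 removes, averaged -0.08 ± 0.46 (SD, n = 31), from -0.91 in BXD34 to 1.06 in BXD21, and was below 0 in 20 strains. Mean ratios of Ifit1 and Isg15 thus lay near 0, and the SD of Isg15 exceeded that of 68.3% of probes.

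Irf7, the transcription factor that amplifies type I interferon production, had the narrowest range of the set. It ran from -0.36 in BXD39 through a median of 0.13 to 0.48 in BXD19, and its SD of 0.19 was smaller than that of nearly all probes, with 1.17% below it. Its mean was 0.13, and 0.21 with spot position removed.

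The GTPases induced mainly by interferon gamma differed in sign. Gbp2, a guanylate-binding protein that coats vacuoles of intracellular microbes, was below 0 in 27 of 31 strains, with a mean of -0.42 ± 0.37 (SD, n = 31), a minimum of -1.27 in BXD24 and a maximum of 0.41 in BXD28. Iigp1, an immunity-related GTPase, was above 0 in 25 strains, with a mean of 0.30 ± 0.44 (SD, n = 31). Its range from -0.35 in BXD38 to 2.11 in BXD33 rested on that last strain, and the next highest value was 0.76. Without BXD33 its mean was 0.24 and its SD 0.29, and with spot position removed its mean over all strains was 0.22. Ifi47, of the same GTPase family, averaged 0.14 ± 0.45 (SD, n = 31), or 0.02 with spot position removed. Its strains BXD20 (1.44) and BXD11 (1.14) were highest and BXD39 (-0.69) lowest.

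**Figure D2:**
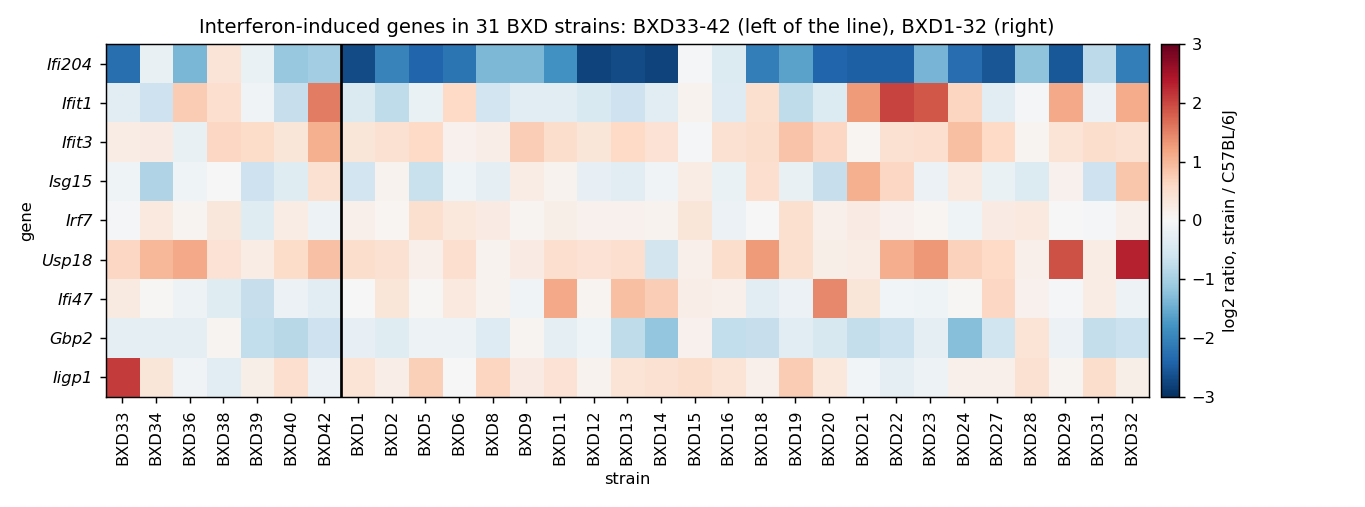
Log2 ratios to C57BL/6J (colour; red higher, blue lower, scale from -3 to 3) of the 9 genes (rows) in 31 strains (columns; 7 of BXD33-42 left of the line, 24 of BXD1-32 right). Ifi204 is blue in nearly all columns, Ifit3 and Usp18 mostly red, and Iigp1 stands out in BXD33 at 2.11.

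Over all probes, a limma fit of the mean against 0 with Benjamini-Hochberg adjustment at 0.05 called 27.2% of probes higher and 30.3% lower. Of the 9 members, 4 were among the higher calls and 2 among the lower ones. This contrast was in view when the list was made, so these counts are no test of the members and nothing is read from them. With a single dye orientation, effects of dye and of the reference RNA cannot be told apart from a shift common to the strains.

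Whether the later and earlier strains differed was asked with a contrast that did not choose the genes. Ifi204 was less low in BXD33-42, with a lowest value of -2.26, a median of -1.05 and a highest of 0.38, against -2.77, -2.14 and -0.02 in BXD1-32. The mean was -0.84 ± 0.89 in BXD33-42 (SD, n = 7 strains) and -1.93 ± 0.76 in BXD1-32 (SD, n = 24 strains). The groups overlapped: 11 strains of BXD1-32 lay below all of BXD33-42, and 1 strain of BXD33-42, BXD38, lay above all of BXD1-32. The difference was 1.09 ± 0.32 (SE), which did not pass after adjustment over 23040 probes in limma (p = 0.00174, adjusted p = 0.165). With array weights it passed at 1.25 ± 0.30 (SE, limma adjusted p = 0.0465).

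Ifi47 differed in the other direction, with a mean of -0.21 ± 0.31 in BXD33-42 (SD, n = 7 strains) and 0.24 ± 0.44 in BXD1-32 (SD, n = 24 strains). The difference of -0.45 ± 0.18 (SE) did not pass either (limma adjusted p = 0.280). None of the 9 members passed, against 0.00868% of all probes, which is 2 of 23040, and 2904 probes had an unadjusted p under 0.05. For the other 7 genes the differences ran from -0.21 (Isg15) to 0.11 (Usp18), with limma adjusted p of 0.691 and above. Within the earlier breeding, bands of strain number were compared after the values were seen. The median of Ifi204 was -2.08 in the 14 strains from BXD15 to BXD32 and -2.28 in the 10 strains from BXD1 to BXD14, where no value was above -1.35. Against BXD15 to BXD32 alone, a choice made after seeing the data, BXD33-42 differed by 0.90 (limma adjusted p = 0.608).

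**Figure D3:**
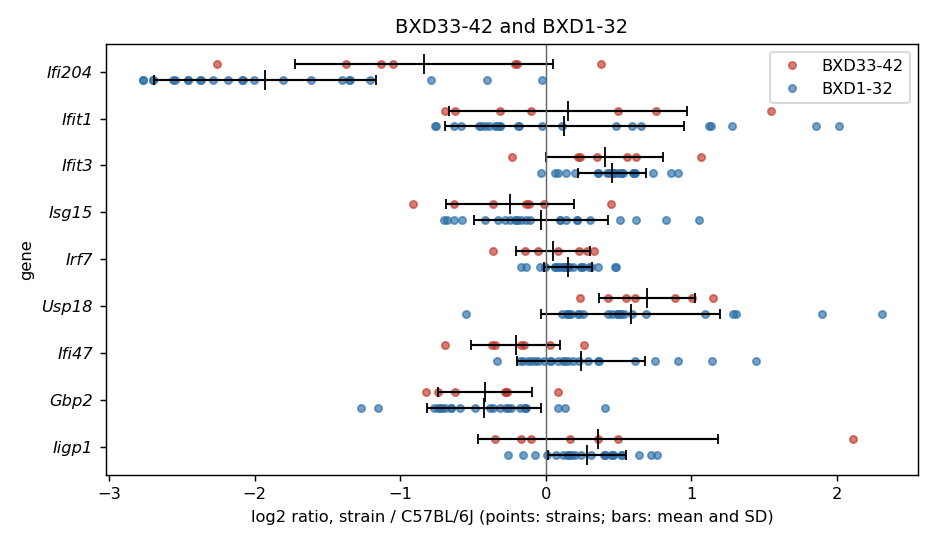
Log2 ratio to C57BL/6J (x axis) of each gene (y axis) in single strains of BXD33-42 (red, upper row, n = 7) and BXD1-32 (blue, lower row, n = 24), with black bars at the mean and SD of each group. Ifi204 averages -0.84 in BXD33-42 and -1.93 in BXD1-32 with overlapping points, and Iigp1 has 1 distant point at 2.11 in BXD33.

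Strain-to-strain variation of Ifi204 was next set against the other members, a measure that had not been used to choose them. In limma fits with Ifi204 as a covariate, 0 of the 8 other genes passed, against 2.94% of 23039 probes. Ifi47 came nearest, with r = -0.433 and rho = -0.420 over 31 strains (permutation p = 0.0146 and 0.0190, limma adjusted p = 0.138). Without BXD15 and BXD38, the 2 strains farthest from the median of Ifi204, r was -0.427. Within BXD33-42 it was -0.639 and within BXD1-32 -0.209. At an unadjusted p under 0.05 Ifi47 was the only one of the 8, with p = 0.0126.

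The remaining 7 genes had r with Ifi204 from -0.211 (Isg15) to 0.261 (Gbp2), and rho from -0.111 to 0.125. Their limma adjusted p ran from 0.446 to 0.899. Iigp1 had r = -0.715 with Ifi204 within BXD33-42, which holds BXD33, and 0.342 within BXD1-32, a difference that was not tested. With the first principal component in the fit, Ifit1 passed with a slope of -0.35 (limma adjusted p = 0.0237), where its r without that component was -0.0586. In that fit 2.89% of 23039 probes passed. Isg15 (slope -0.24, limma adjusted p = 0.0788) and Usp18 (slope -0.24, limma adjusted p = 0.106) moved the same way there without passing. With Ifit1 as the covariate beside that component, Ifi204 did not pass (limma adjusted p = 0.0521). With array weights Ifi47 passed at a slope of -0.26 (limma adjusted p = 0.0368), in a fit that called 2603 of 23039 probes, against 677 without weights. Ifi47 did not pass with spot position removed (slope -0.16, limma adjusted p = 0.271). Nor did it with the first principal component (slope -0.12, limma adjusted p = 0.426) or breeding group (slope -0.15, limma adjusted p = 0.495) as a further covariate.

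Genes whose strain pattern was most like that of Ifi204 were named by Pearson r over 31 strains. The highest were 1700016G22Rik (0.914), Trdv5, a T cell receptor delta variable segment (0.854), C030007H22Rik (0.852), 1110020A21Rik (0.842) and Lix1 (0.840). The lowest were Mbd3, a methyl-CpG-binding domain protein of the NuRD complex (-0.705), Ly6g6e (-0.699), the chromatin regulator Ankrd11 (-0.699), the Wnt antagonist Sfrp1 (-0.697) and the ubiquitin ligase subunit Fbxo6 (-0.689). Probe number moved with this likeness. The probe of Ifi204 has a number that is a multiple of 8, as have 12.5% of probes, all 5 of the genes named as highest and, of those named as lowest, Ly6g6e. Of 373 probes related to Ifi204 with a positive slope, 220 (59.0%) had such a number, and of 304 with a negative slope 23 (7.57%). These probes also varied more, with a median SD of 0.552, against 0.357 for the rest, and had a mean log2 ratio of -0.17, against 0.02. Ifi204 had the lowest mean of the 2880. Among the other members only Usp18 has such a number. Over strains, Ifi204 had r = 0.284 with the mean of the other probes of such a number. With spot position removed, r with Ifi204 of the 5 genes named as highest ran from 0.739 (Lix1) to 0.861 (1700016G22Rik). The part of probe number in these relations was not tested.

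On its chromosome, Ifi204 lies in a cluster of p200 family genes. The nearest measured genes were Ackr1 and Cadm3 on one side and the family members Ifi203 and Ifi202b on the other. Ifi202b, also of the p200 family, averaged -0.42 ± 0.48 (SD, n = 31), Ifi203 averaged -0.02 ± 0.56, Cadm3 -0.06 and the chemokine-binding receptor gene Ackr1 0.30. Their r with Ifi204 was 0.288 for Ifi202b, -0.0588 for Ifi203, 0.152 for Cadm3 and 0.410 for Ackr1. None of the 4 passed with Ifi204 as covariate (lowest limma adjusted p = 0.208). Of these 4 genes only Ifi202b was below 0 by more than 0.1 on average, in 23 of 31 strains, and its shift was smaller than that of Ifi204.

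Among all 36 pairs of the 9 genes, r over strains had a median of -0.0820, with 12 pairs above 0 and 24 below. In limma fits with each member in turn as covariate, chosen after these values were seen, 3 pairs passed in both directions, all with Ifit1. Ifit1 and Isg15 had r = 0.636 and rho = 0.583 (permutation p = 0.00014 and 0.00081, limma adjusted p = 0.00155 on Ifit1 and 0.00607 on Isg15). Their r was 0.681 without BXD22 and BXD23, 0.815 within BXD33-42 and 0.610 within BXD1-32. Ifit1 and Usp18 had r = 0.563 and rho = 0.359 (permutation p = 0.00124 and 0.0481, limma adjusted p = 0.00552 on Ifit1 and 0.00933 on Usp18). In this pair the value was 0.515 without BXD22 and BXD23, 0.304 within BXD33-42 and 0.614 within BXD1-32. For example, BXD22 had Ifit1 at 2.02, Isg15 at 0.62 and Usp18 at 1.10, and BXD42 had them at 1.55, 0.45 and 0.89.

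Iigp1 ran against Ifit1, with r = -0.561 and rho = -0.618 (permutation p = 0.00072 and 0.00023, limma adjusted p = 0.00673 on Ifit1 and 0.0383 on Iigp1). Without BXD33 the r was -0.752. With spot position removed, Iigp1 and Ifit1 no longer passed on Iigp1 (limma adjusted p = 0.111), whereas the other 2 pairs did pass. Isg15 and Usp18, a modifier and the enzyme that removes it, had r = 0.386 and did not pass (limma adjusted p = 0.125 and 0.110). With spot position removed their r was 0.503, and they passed on Usp18 (limma adjusted p = 0.0275) but not on Isg15 (limma adjusted p = 0.0550). Irf7 and Gbp2 had r = 0.492 (permutation p = 0.00501) and did not pass (limma adjusted p = 0.307 on Gbp2 and 0.466 on Irf7). Ifit1 and Ifit3, neighbours in 1 gene cluster that both carry the response element shown above, had r = 0.00950, and -0.482 with spot position removed. In that setting they passed on Ifit1 (limma adjusted p = 0.0359) but not on Ifit3 (limma adjusted p = 0.171).

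**Figure D4:**
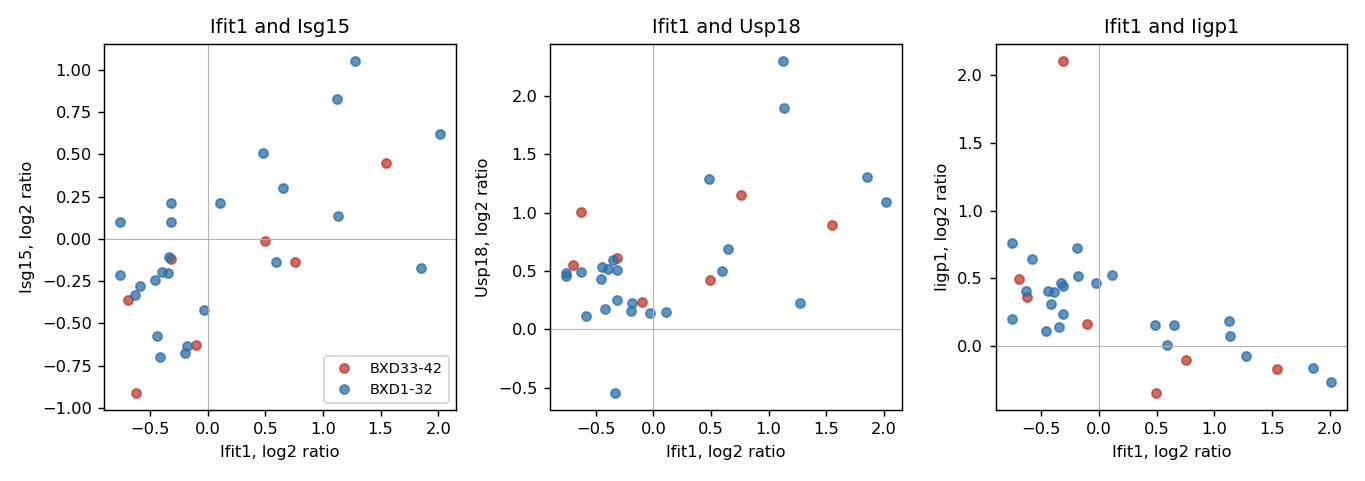
Log2 ratio to C57BL/6J of Ifit1 (x axis) and of Isg15, Usp18 or Iigp1 (y axes) in 31 strains (red, BXD33-42; blue, BXD1-32). Isg15 and Usp18 rise along Ifit1 (r = 0.636 and 0.563), Iigp1 declines along it (r = -0.561), and BXD33 stands alone at an Iigp1 value of 2.11.

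These relations were shared with much of the array. Ifit1 was related to 27.6% of 23039 probes, Usp18 to 15.2%, Isg15 to 9.5% and Iigp1 to 1.93%. Values along the first principal component of all probes had r = 0.776 with Ifit1, 0.658 with Usp18, 0.524 with Isg15, -0.492 with Iigp1 and -0.624 with Ifi47, but 0.366 with Ifi204 and 0.0647 with Ifit3. With that component as a covariate, 0 of the 36 pairs passed in both directions, and r with the component removed was 0.426 for Ifit1 and Isg15, 0.111 for Ifit1 and Usp18 and -0.327 for Ifit1 and Iigp1. The shared pattern of these members cannot be told apart from the main axis of variation between arrays.

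**Figure D5:**
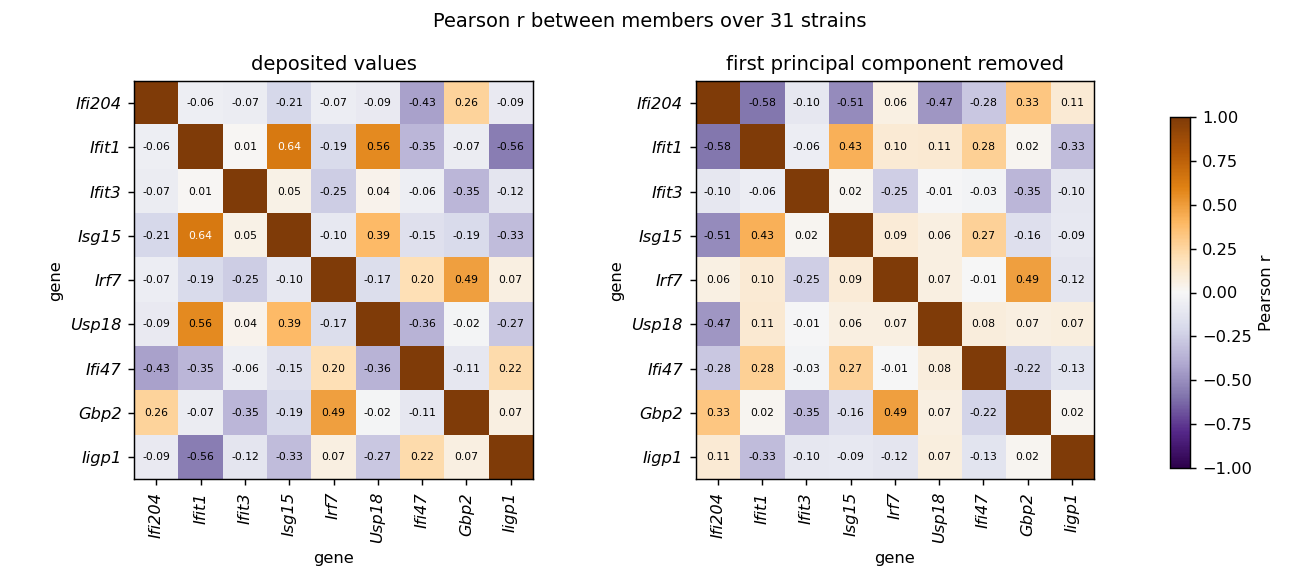
Pearson r over 31 strains between each pair of the 9 genes (rows and columns; brown above 0, purple below 0), for the deposited values (left) and with the first principal component removed (right). At left Ifit1 has 0.64 with Isg15, 0.56 with Usp18 and -0.56 with Iigp1; at right these are 0.43, 0.11 and -0.33.

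Other genes of the interferon pathway were taken from lists that held 138 genes, of which 99 were measured by 105 probes. By the fit of the mean against 0, 22 of these probes (21.0%) were higher and 31 (29.5%) lower, beside 27.2% and 30.3% of all probes. Their median mean was -0.04, beside -0.02 for all probes. None differed between BXD33-42 and BXD1-32, and 3 (2.86%) were related to Ifi204, beside 2.94% of all probes. These 3 were the RNA-sensing helicase regulator Dhx58 (r = 0.548, limma adjusted p = 0.0401), the nucleotide hydrolase Samhd1 (r = 0.570, limma adjusted p = 0.0310) and Ifi27 (r = -0.683, limma adjusted p = 0.00269).

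Among interferons and receptors, 13 of 16 genes were measured, and 0 of 14 probes were higher and 7 lower. For each list below, all probes give 27.2% higher and 30.3% lower, and no list was tested against these shares. Ifna2 (-0.96) and Ifna11 (-0.66), both type I interferons, were lowest, and Ifna7 (0.16) and Ifng (0.11), neither of which passed, were at the top. Of the signal transducers, 1 of 5 probes was higher and 2 lower. Irf9, the DNA-binding part of the type I complex, was at -0.43 and the kinase Jak2 at -0.20, while the kinase Jak1 rose, with a mean of 0.13, and Stat2 stood at 0.08 without passing. The regulatory factors had 2 of 6 higher, Irf5 (0.28) and Irf2 (0.27), and 2 lower, Irf8 (-0.25) and Irf3 (-0.19). Negative regulators had 4 of 11 probes higher and 3 lower, with the SUMO ligase Pias1 (0.37) and Cish (0.37) at the top and Pias4 (-0.38) and the phosphatase Ptpn2 (-0.30) at the bottom.

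Nucleic acid sensors had 1 of 12 probes higher and 7 lower, beside the same 27.2% and 30.3% of all probes. The DNA sensor Cgas (0.23) was the higher one, the kinase Ikbke (0.11) came next without passing, and Dhx58 (-0.64) and the adaptor Myd88 (-0.36) were lowest. Of the other GTPases, 1 of 9 probes was higher and 4 lower, with Mx1 (0.27) higher, Irgm2 (0.10) next without passing, and Gbp3 (-0.48) and Irgm1 (-0.39) lowest. The antiviral effectors, with 43 of 56 genes measured, had 13 of 46 probes higher and 5 lower. Adar, which edits double-stranded RNA (0.61), and Samhd1 (0.40) were highest, and the chemokine Cxcl9 (-0.42) and the kinase Eif2ak2 (-0.29) lowest. Ifit2, of the same family as Ifit1 and Ifit3, was at -0.04.

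Marker lists of the cells that a tissue sample could hold were followed over strains, as means of log2 ratios. Kidney proximal tubule markers, 9 of 9 measured, ranged from -0.68 to 0.16 in BXD33-42 and from -0.33 to 1.30 in BXD1-32, and had r = -0.631 with Ifi204. In the fit with Ifi204 as covariate, 2 of their 10 probes passed, beside 2.94% of all probes. These were the glucose transporter gene Slc5a2 (r = -0.676, limma adjusted p = 0.00236) and Slc22a12 (r = -0.556, limma adjusted p = 0.0317). Markers of other nephron segments, 5 of 7 measured, had r = -0.599 with Ifi204 and ranged from -0.14 to 0.24 in BXD33-42 and from -1.05 to 0.49 in BXD1-32. Macrophage markers (11 of 12 measured) ranged from -0.02 to 0.17 in BXD33-42 and from -0.28 to 0.25 in BXD1-32, with r = -0.0743 for Ifi204 and -0.0309 for Ifit1. Of their 12 probes, 1 passed with Ifi204 as covariate, that of C1qc (r = -0.567, limma adjusted p = 0.0459). Markers of T and NK cells (12 of 13) and of B and plasma cells (8 of 9) had r from -0.267 to -0.0658 with these 2 genes. Dendritic cell markers (6 of 8) ranged from -0.31 to 0.38 in BXD33-42 and from -0.44 to 0.16 in BXD1-32, with r = 0.341 for Ifi204 and 0.597 for Ifit1. Neutrophil markers (6 of 7) had r = 0.0389 with Ifi204 and 0.461 with Ifit1. For neurons (7 of 9) and glia (6 of 7), r was 0.122 and -0.0959 with Ifi204 and 0.399 and -0.332 with Ifit1. Markers also differed in spread over strains, beside a median SD of 0.374 over all probes. SDs ran from 0.38 (Cubn) to 1.28 (Kap) for proximal tubule genes and from 0.25 (Nphs1) to 0.75 (Umod) for other nephron genes. For the 7 neuron genes they ran from 0.24 (Syt1) to 0.32 (Tubb3), and for glia genes from 0.23 (Aqp4) to 0.52 (Mobp). The part of these cell types in the member values was not tested.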

How the data were processed

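RNA of 31 strains was hybridized to 2-colour spotted glass arrays. The deposited values are log ratios, read here as log2, made by the authors with R 2.0.0 and limma per the submitters' processing notes. The base and direction of the logarithm are not given in the sources used here. Sorted values were identical in all columns, so quantile normalization had been applied. Signal intensities were not used here, and the number of arrays limits the precision.

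Probe names came from the platform table (1 gene name for 16874 probes, several for 134, none for 6032), and 16196 were matched by gene number to RefSeq (GRCm38.p6). The members and lists were chosen with earlier results of these data known. Fits across all 23040 probes used limma 3.58.1 in R 4.3.3 (lmFit, eBayes, 2-sided, Benjamini-Hochberg threshold 0.05), tested on simulated data. The covariate was the value of the Ifi204 probe, or of each other member in turn for pairs. Permutation tests of r and rho used 100000 permutations, 2-sided. P-values measure the spread between arrays. Genes were named by rule: every member, and the 5 highest and 5 lowest by r with Ifi204 and with the mean of the other 8. Also named were the 2 highest and 2 lowest of each pathway list and the 2 measured neighbours of Ifi204 on each side. List genes that passed with Ifi204 as covariate were named too. Ifit2, the genes named for their r with Ifit1 and the markers named for their SD were chosen after their values were seen. Alternatives were median centring, removal of spot position, array weights, robust eBayes, the first principal component, breeding group, ranks and strains left out.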

Additional observations from a re-analysis of the deposited data

Results flagged for a closer look

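Iigp1, an interferon-gamma-induced GTPase, had a log2 ratio of 2.11 in BXD33, far from the other 6 strains of BXD33-42, of which the highest was at 0.50. The gap was 0.657 of the range of the 7 strains, above the 95% critical value of 0.568. Of 9 such sets of values, 1 for each gene, 1 was found. Chance gives about 1 in 20 for each single set, and so more often at least 1 over the 9 sets. Without BXD33 the mean of Iigp1 in BXD33-42 was 0.07 ± 0.33 (SD, n = 6 strains), in place of 0.36 ± 0.83 with it (SD, n = 7 strains). Each strain had 1 array, so the value has no replicate.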

How the results depend on the processing

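Mean ratios of all 9 members kept their direction under median centring, removal of spot position, array weights, BXD1-32 alone, removal of the first principal component and without BXD15 and BXD38, and the mean of Ifi204 ran from -1.93 to -1.50. For BXD33-42 against BXD1-32, array weights made Ifi204 pass at 1.25, so that 1 member passed in place of 0; other settings gave Ifi204 differences of 0.87 to 1.09 with limma adjusted p of 0.165 to 0.608. Probes called in all numbered 116 with array weights, against 2. For the relation to Ifi204, 1 member passed in place of 0 with array weights (Ifi47) and 1 with the first principal component (Ifit1). Probes related to Ifi204 numbered 677, and 2603 with array weights, 157 with breeding group and 54 with ranks. The causes were not tested. Each member had 1 probe, so averaging probes changed nothing for them. No paired analysis was possible because each strain number occurs once. How far each spot lay above background is unknown here.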

Other observations

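Pathway genes that followed Ifit1 over the 31 strains, picked after their values were seen, were split in direction. The antiviral Oasl2 (r = 0.770), the nuclear body gene Sp100 (0.747), the chemokine Cxcl9 (0.739) and Ifi35 (0.705) had the highest r. Trim30a (-0.751), Pias1 (-0.735), the kinase Tyk2 (-0.701) and Parp14 (-0.697) had the lowest. An r above 0.5 was reached by 13 of 99 pathway genes (13.1%), beside 10.4% of all probes, and an r below -0.5 by 17 (17.2%), beside 8.80% of all probes. Pathway genes with more than 1 probe were averaged first, whereas the shares of all probes count single probes. All these genes were measured on the same arrays, and Ifit1 follows the first principal component.

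The mean of the 8 members other than Ifi204 had its highest correlations over strains with Samsn1 (0.775), Gm8479 (0.761), Timmdc1 (0.751), Olfr68 (0.740) and the receptor kinase Grk5 (0.732). Its lowest were with the T cell adaptor Skap1 (-0.747), Hsp25-ps1 (-0.735), 2310015D24Rik (-0.734), Sbf2 (-0.729) and 1700069P05Rik (-0.723), and all 5 of these lowest have probe numbers that are multiples of 8.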
